A study of Homo sapiens with 12 samples.

Results

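The genes described here are the clustered histone genes of HCT116 cells that remain after the 9 most strongly raised by dolastatin 15 are set aside. Members were all rows whose GENCODE 29 symbol starts with HIST and a digit, less HIST1H2BC, HIST1H2BD, HIST1H2BJ, HIST1H2BK, HIST1H2AC, HIST2H2BE, HIST2H2AA4, HIST1H1C and HIST1H4H. This gave 81 of the 58174 genes in the table, 62 annotated as protein coding and 19 as pseudogenes. By class they are 7 linker H1, 21 H2A, 21 H2B, 17 H3 and 15 H4 genes. By cluster, 61 belong to HIST1, 15 to HIST2, 4 to HIST3 and 1 to HIST4. In GRCh38 the HIST1 genes lie on chromosome 6 between 25726132 and 27893843, apart from 2 processed pseudogenes on chromosome 13, the HIST2 and HIST3 genes lie on chromosome 1, and HIST4H4 lies on chromosome 12.

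The data are 12 RNA-seq libraries from HCT116, an established human colorectal carcinoma line, treated with dolastatin 15, a marine cyanobacterial peptide that blocks microtubule assembly, or with the DMSO solvent alone. All groups received the same DMSO concentration. The 6 groups of 2 libraries each were solvent at 16 h (libraries 5 and 6), 20 nM at 16 h (1 and 2), 100 nM at 16 h (3 and 4), solvent at 24 h (11 and 12), 20 nM at 24 h (7 and 8) and 100 nM at 24 h (9 and 10). The duplicates are treated wells of 1 line, so p-values measure the spread between such wells. Values are FPKM, fragment counts scaled to transcript length and to the number of mapped fragments in the library.

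Replication-dependent histone genes encode the core histones H2A, H2B, H3 and H4, which form the nucleosome, and the linker histone H1, which binds between nucleosomes. They are transcribed mainly in S phase, lie in clusters, often as H2A and H2B genes sharing a promoter region, and most of their mRNAs end in a conserved stem-loop bound by SLBP in place of a poly(A) tail. Some of the same genes also give polyadenylated transcripts that run past the stem-loop, which is described mainly in differentiated cells that no longer divide. The libraries were made from poly(A)-selected RNA, so the values cover transcripts retained by that selection. In such libraries, more histone transcript and a larger share of it carrying a tail cannot be told apart. In bulk RNA, fewer cells that express a gene and less of its RNA per cell cannot be told apart either.

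The stem-loop is shown because it is the element that separates the usual histone mRNA end from the polyadenylated one. It was found in the annotated GENCODE 29 transcripts of 26 of the 62 coding members, in 6 sequence forms. The motif occurs in 54 of 58676 genes with a transcript sequence, 35 of them among all 90 clustered histone genes. Capitals mark the 2 arms of the stem, the lower-case letters the loop, and the sequences are in the DNA letters of the transcript, 5′ to 3′.
form in HIST3H2A, HIST1H2BN, HIST2H3A, HIST2H3C and other members: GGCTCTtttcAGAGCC
form in HIST1H4B, HIST1H4E, HIST1H4J and HIST4H4: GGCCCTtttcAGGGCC
form in HIST1H4I, HIST2H4A and HIST2H4B: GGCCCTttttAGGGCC
form in HIST1H2BF, HIST1H3G and HIST3H3: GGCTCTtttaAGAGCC
form in HIST1H2AG: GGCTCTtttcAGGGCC
form in HIST1H3E: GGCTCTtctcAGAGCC
The first form was held by 14 coding members of the H2A, H2B and H3 classes, while the H4 genes carried forms with other letters in the arms. Of the 26 coding members with a stem-loop, 19 have an annotated transcript that continues at least 100 bases past it, and 15 of those 19 hold a polyadenylation signal after it. The other 36 coding members have none in their annotated transcripts. In 32 coding members the annotated coding transcripts do not extend past the coding sequence, so these models hold no longer 3′ end, and HIST1H3J alone among the 32 has a second, noncoding transcript.

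In the series as a whole, the FPKM of all genes summed to between 911720.3 and 1049886.3 per library, and sequencing depth is unknown because no counts were used here. The epithelial markers EPCAM, KRT8, KRT18, KRT19 and CDX2 were present in every library and CDH1 was low at 2.91 to 3.92 FPKM, while VIL1 reached at most 0.22. The leukocyte marker PTPRC did not exceed 0.02 FPKM, and the 4 markers of other cell types summed to 1.58 to 4.43 FPKM. Most of that sum was the fibroblast marker COL1A1, at 1.44 to 4.34 FPKM, a level similar to that of CDH1. Library 8 (20 nM, 24 h) stood apart for the histone members: it held the single highest value for 15 of the 47 members above 0 in any library. It also had the largest mitochondrial share of FPKM, 25.8% against 17.9% to 24.5% in the others. Whether the 2 go together was not tested, and results that rest on library 8 are given with and without it.

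Most remaining histone genes were listed low or at 0 in these libraries. Where genes share sequence, the division of reads between them is uncertain, so a listed 0 need not mean absence. Of the 62 coding members, 14 have under 50% of their 100-base windows unique among annotated transcripts, and 6 have none unique. HIST1H4K, listed at 0 throughout, shares all its windows with HIST1H4J. A total of 34 members were listed at 0 in all 12 libraries, 20 of them coding and 14 pseudogenes. Another 29 were above 0 but did not reach 1 FPKM in at least 2 libraries, the minimum for testing, with a highest value of 2.79 in HIST1H2AJ. The remaining 18 reached it: 1 H1, 7 H2A, 4 H2B, 3 H3 and 3 H4 genes, of which 12 lie in HIST1, 5 in HIST2 and 1 in HIST3. Of the 18, 10 met the minimum on the 4 solvent libraries alone, while 8 met it only with treated libraries (HIST1H1E, HIST1H2AD, HIST1H2AG, HIST1H2AK, HIST1H2BN, HIST1H3B, HIST1H3J and HIST2H2BC), so a count over the 18 is tilted towards genes that are higher with drug.

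**Figure D1:**
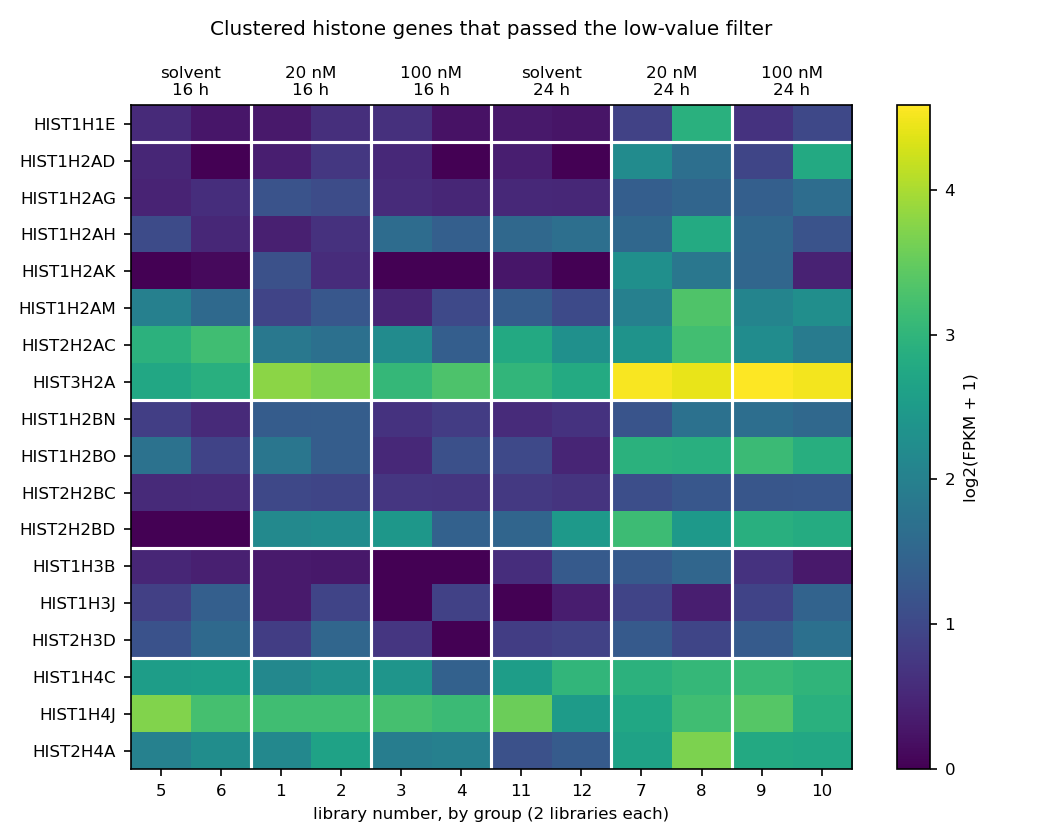
Level of the 18 clustered histone genes that reached the low-value minimum, as log2(FPKM + 1), in each of the 12 libraries ordered by group along the horizontal axis, with white lines between groups and between the H1, H2A, H2B, H3 and H4 classes. HIST3H2A is the brightest row and reaches 20.7 to 23.0 FPKM in the 4 drug libraries at 24 h.

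Summed over all 81 members, FPKM was 47.5 ± 2.47 (SD, n = 2 here and below) in solvent at 16 h, 51.5 ± 1.99 with 20 nM and 37.7 ± 3.04 with 100 nM. At 24 h the sum was 41.1 ± 3.28 in solvent, 102 ± 22.0 with 20 nM and 87.6 ± 2.05 with 100 nM. The ratio to solvent was therefore 1.08 and 0.795 at 16 h, for 20 nM and 100 nM in turn, and 2.48 and 2.13 at 24 h. Both drug groups at 24 h lay above both solvent libraries, while at 16 h the 100 nM libraries lay below them. Without library 8 the ratio for 20 nM at 24 h was 2.10. The sum rests in part on HIST3H2A, which made up 11.6% to 25.9% of it, and without that gene the ratio for 20 nM at 16 h was 0.948, on the other side of 1. These sums are given without a test.

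The classes did not move alike at 16 h. Summed H3 FPKM was 5.12 and 5.29 in solvent, 2.63 and 4.41 with 20 nM, and 2.30 and 2.00 with 100 nM, so both doses lay below solvent. The H4 sum was 20.9 and 19.1 in solvent, 16.8 and 19.4 with 20 nM, and 16.0 and 14.0 with 100 nM, so that only the 100 nM libraries were clear of the solvent ones. In contrast, the H2B sum was 4.01 and 2.99 in solvent, 9.15 and 8.92 with 20 nM, and 6.58 and 5.31 with 100 nM. This higher H2B sum came largely from 1 transcribed pseudogene, HIST2H2BD: the other 20 H2B genes summed to 1.56 times solvent with 20 nM and 0.831 times with 100 nM, and the 100 nM libraries then overlapped solvent. The H2A sum hid a similar split, with ratios of 1.10 and 0.769 for the class but 0.647 and 0.493 for its 20 genes other than HIST3H2A.

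By 24 h all 5 class sums were higher in value in both drug groups than in both solvent libraries. The H2A sum was 18.7 and 13.9 in solvent, 40.9 and 53.1 with 20 nM, and 36.9 and 39.3 with 100 nM, 2.88 and 2.34 times solvent. For H2B the solvent libraries held 4.84 and 6.72, against 19.1 and 19.2 with 20 nM and 19.5 and 17.2 with 100 nM, the largest ratios of the core classes at 3.31 and 3.17. Without HIST2H2BD the H2B ratios were higher, at 5.04 and 4.72, and without HIST3H2A the H2A ratios were lower, at 2.62 and 1.61. H3 reached 5.21 and 5.99 with 20 nM and 6.23 and 6.00 with 100 nM, over 2.00 and 4.24 in solvent, which put its drug libraries at about the level that solvent had at 16 h. The H4 sum was 17.7 and 13.7 in solvent, 19.7 and 32.3 with 20 nM, and 25.7 and 22.2 with 100 nM, the smallest ratios at 1.66 and 1.53. When each library was rescaled to a common sum, the 20 nM libraries overlapped solvent for H4 (ratio 1.46), and the other 4 classes stayed above it. H1 was low throughout: 0.24 and 0.20 in solvent, 1.24 and 6.70 with 20 nM and 0.75 and 1.33 with 100 nM, with library 8 alone far above the rest.

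**Figure D2:**
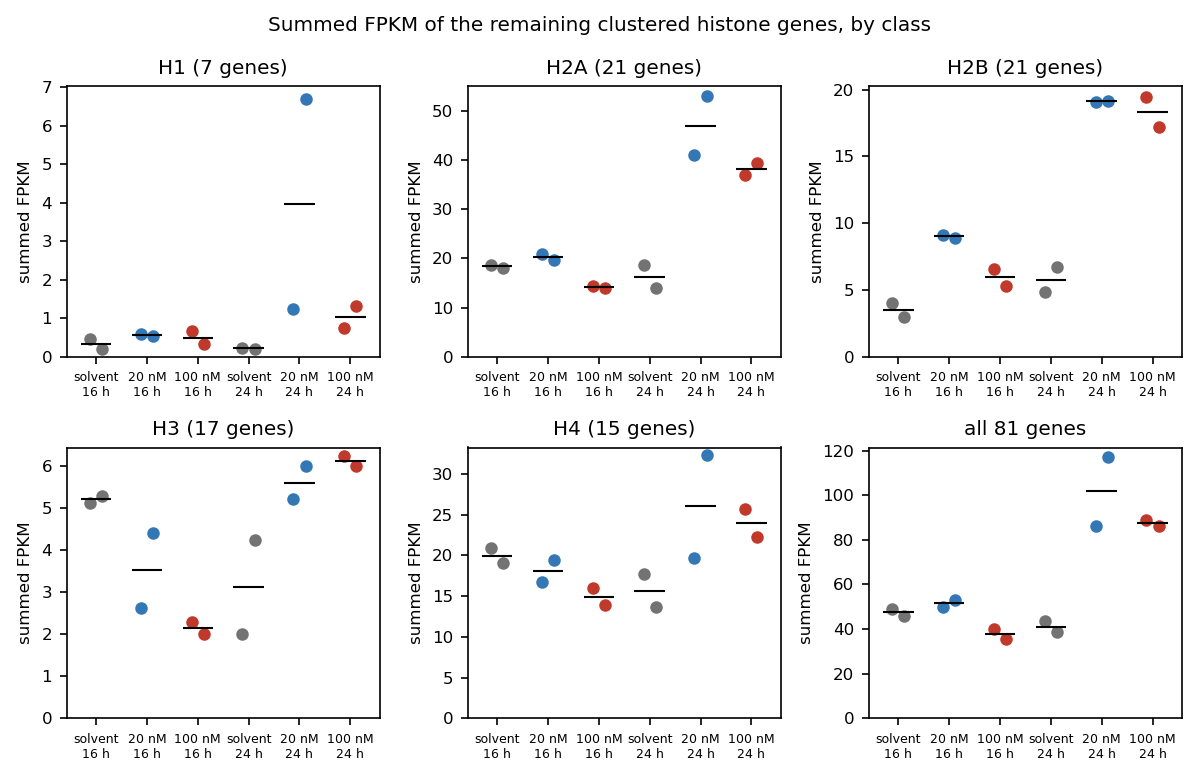
Summed FPKM of the histone members by class, and over all 81 genes, with 1 point per library, a line at the mean of the 2 libraries, and the 6 groups on the horizontal axis (grey solvent, blue 20 nM, red 100 nM). At 24 h the drug points lie above the solvent points in every panel, while at 16 h the H3 points lie below them and the H2B points above.

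The clusters differed at 16 h and were all above solvent at 24 h. HIST1 summed to 0.90 and 0.706 times solvent at 16 h and to 2.35 and 1.90 times at 24 h, and HIST2 to 1.01 and 0.734 times, then 2.23 and 1.82 times. The HIST3 cluster, which is nearly all HIST3H2A, was above solvent already at 16 h, at 2.02 and 1.34 times, and stood at 3.27 and 3.40 times at 24 h. HIST4H4, the 1 member of its cluster, encodes H4 and stayed under 1 FPKM throughout: 0.27 and 0.40 in solvent at 16 h, 0.63 and 0.54 with 20 nM, 0.18 and 0.17 with 100 nM. It was thus above solvent with 20 nM (1.75 times) and below it with 100 nM (0.522 times) at 16 h. Its 24 h values were 0.09 and 0.02 in solvent against 0.49 and 0.80 with 20 nM and 0.82 and 0.34 with 100 nM, the lowest solvent and some of the highest drug values of this gene.

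Each dose was tested against the solvent of its own time with limma on log2(FPKM + 1) across 13458 genes, calling a gene at a Benjamini-Hochberg adjusted p under 0.05. Log2 changes on this scale understate the change of low genes. With 20 nM at 16 h, 5 of the 18 tested members rose (6.78% of all tested genes rose) and 1 fell (1476 of the 13458 fell, and 17.7% changed in either direction). With 100 nM at 16 h, 2 rose (9.16% of all) and 2 fell (14.7%). At 24 h, 10 rose and 0 fell with 20 nM (14.7% and 14.1% of all), and 7 rose and 0 fell with 100 nM (15.4% and 18.4%). The median log2 change over the 18 was 0.15, -0.11, 0.83 and 0.85 in that order, but these medians hold the 8 members that met the minimum only with treated libraries. Among the 10 that met it on solvent libraries alone the median was -0.21, -0.40, 0.69 and 0.75, so with 20 nM at 16 h the sign turned. Over all tested genes the median was -0.02, -0.03, 0.00 and -0.02. The calls among those 10 were 2 higher and 1 lower, 2 higher and 2 lower, 4 higher and 3 higher.

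Leaving out some single libraries lowered the counts at 16 h, for the members and for all tested genes alike. Without library 7 or 8, which are 24 h libraries, the counts over all tested genes at 16 h rose instead at both doses. With 20 nM the 6 calls became 2 without library 1, 2 or 5 and 3 without library 6, while the 2388 calls over all genes became 1036, 1042, 1054 and 1240. With 100 nM the 4 calls became 1 without library 4, 5 or 6, and the 3205 over all genes became 1910, 1781 and 1855. At 24 h the 10 calls with 20 nM became 6 without library 8 and 5 without library 11, against 3332 and 2153 in place of 3880 over all genes. The 7 calls with 100 nM stayed at 7 or 8 whichever library was left out, while the 4550 over all genes ranged from 2757 to 5005.

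**Figure D3:**
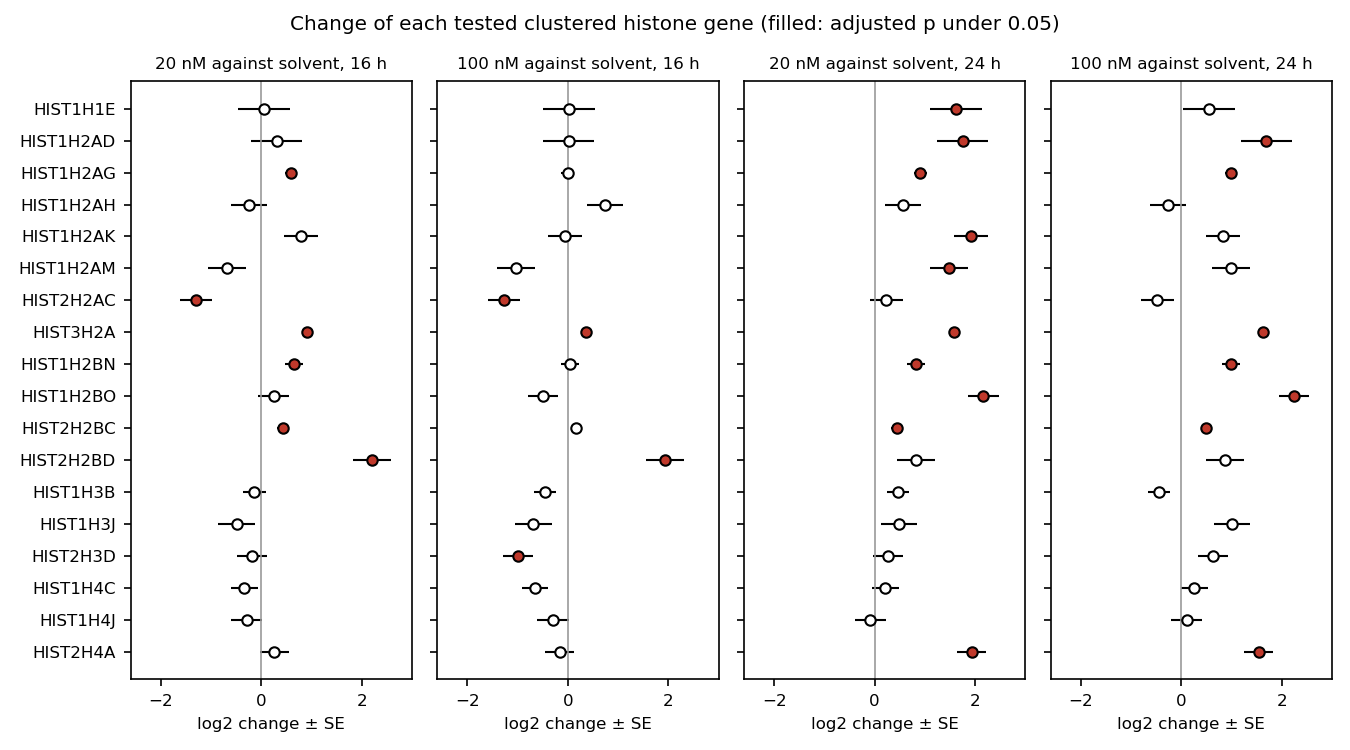
Log2 change of each of the 18 tested histone members on the log2(FPKM + 1) scale, with its standard error, in the 4 drug comparisons; filled points have an adjusted p under 0.05. Filled points lie on both sides of 0 at 16 h and only to its right at 24 h.

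Among linker histones, HIST1H1E, which encodes H1.4, was the 1 gene tested. It stood at 0.46 and 0.21 FPKM in solvent at 16 h, 0.24 and 0.54 with 20 nM and 0.56 and 0.17 with 100 nM. At 24 h its values were 0.24 and 0.20 in solvent, 0.86 and 6.51 with 20 nM and 0.6 and 1.00 with 100 nM. All 4 drug libraries at 24 h were above solvent, but library 8 was more than any other by a wide margin. The change with 20 nM at 24 h was called at 1.62 (SE 0.51, adjusted p = 0.0432). That call ended in 14 of 19 alternatives (adjusted p from 0.055 to 0.137), including the fits without library 1, 2, 3, 4, 5, 6, 9, 10, 11 or 12, and without library 8 the change was 0.61 (adjusted p = 0.12).

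HIST3H2A, an H2A gene of the small chromosome 1 cluster (228456979 to 228457873, minus strand), was the most abundant member, with a mean of 12.8 FPKM. Its single annotated transcript of 895 bases carries the stem-loop and runs 390 bases past it, with a polyadenylation signal, and all of its 100-base windows are unique among annotated transcripts. It stood at 5.70 and 6.43 FPKM in solvent at 16 h, 12.7 and 11.8 with 20 nM and 7.32 and 8.85 with 100 nM. At 24 h it stood at 7.11 and 6.01 in solvent, 22.3 and 20.7 with 20 nM and 23.0 and 21.8 with 100 nM. Every drug library was above both solvent libraries of its time, and at 16 h the lower dose gave the higher values. The log2 change was 0.91 (SE 0.10, adjusted p = 0.000668) and 0.36 (SE 0.10, adjusted p = 0.0336) at 16 h for 20 nM and 100 nM, and 1.58 (adjusted p = 4.45e-05) and 1.63 (adjusted p = 1.51e-05) at 24 h. The call with 100 nM at 16 h ended without library 4, 5 or 6, in a fit of the 16 h libraries alone and without the low-value filter (adjusted p from 0.0575 to 0.189), and without library 4 the change was 0.24. The other 3 were called under every alternative.

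Another 5 H2A genes were called in at least 1 drug comparison. HIST1H2AG, whose 2250-base transcript runs 1761 bases past its stem-loop, stood at 0.37 and 0.52 FPKM in solvent at 16 h, 1.25 and 1.10 with 20 nM and 0.47 and 0.40 with 100 nM. Its 24 h values were 0.45 and 0.43 in solvent, 1.60 and 1.81 with 20 nM and 1.62 and 2.12 with 100 nM. It was clear of solvent at 20 nM at both times but at 100 nM only at 24 h. Changes were 0.59 (SE 0.13, adjusted p = 0.0146) with 20 nM at 16 h, and 0.91 (adjusted p = 0.00135) and 0.99 (adjusted p = 0.000644) at 24 h. Only the 16 h call ended under an alternative, without library 1, 2 or 5 (adjusted p from 0.0569 to 0.0927).

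HIST1H2AD stood at 0.41 and 0 FPKM in solvent at 16 h, 0.30 and 0.67 with 20 nM and 0.45 and 0 with 100 nM. The 24 h libraries listed it at 0.30 and 0 in solvent, 3.64 and 2.18 with 20 nM and 0.95 and 5.92 with 100 nM. The 24 h drug libraries were above solvent but spread widely within each dose. The changes there were 1.75 (SE 0.51, adjusted p = 0.0309) and 1.69 (adjusted p = 0.0315). The call with 20 nM ended without library 7, 8, 11 or 12, and that with 100 nM without library 10, 11 or 12, and both ended in the 24 h libraries alone and without the low-value filter (adjusted p from 0.0533 to 0.153); without library 10 the 100 nM change was 0.77. Only 2.4% of its 100-base windows are unique, since it lies on the same strand within AL031777.3, a gene model listed at 0.35 and 0.54 FPKM in solvent at 24 h and at 2.73 to 4.91 in the 4 drug libraries, so the division of reads between them is uncertain.

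HIST1H2AK was near 0 in solvent, at 0 and 0.09 FPKM at 16 h and 0.21 and 0 at 24 h. With 20 nM it stood at 1.2 and 0.49 at 16 h and 3.88 and 2.53 at 24 h, and with 100 nM at 0 and 0, then 1.84 and 0.35. The 20 nM libraries were thus the higher at both times. Its change with 20 nM at 24 h was 1.92 (SE 0.33, adjusted p = 0.0035) and was called under every alternative, while the other drug comparisons were not called. It lies antisense within the span of HIST1H2BN, and since no source used here names the strand setting of the counting, reads of the 2 genes may not be separated.

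HIST1H2AM stood at 2.99 and 1.96 FPKM in solvent at 16 h, 0.93 and 1.37 with 20 nM and 0.39 and 1.02 with 100 nM. By 24 h the values were 1.51 and 1.03 in solvent, 2.99 and 8.97 with 20 nM and 3.2 and 3.83 with 100 nM. The drug libraries lay below solvent at 16 h and above it at 24 h. The change with 20 nM at 24 h was 1.48 (SE 0.38, adjusted p = 0.0181), and the 16 h changes of -0.68 and -1.04 were not called (adjusted p = 0.249 and 0.0787). The call ended without library 8, 11 or 12, in the 24 h libraries alone and without the low-value filter (adjusted p from 0.0552 to 0.0945), and without library 8 the change was 0.82. Only 16.0% of its windows are unique, the rest being shared with an overlapping transcript of HIST1H3J on the same strand.

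HIST2H2AC, with 82.8% unique windows and the rest shared with HIST2H2AA3 and HIST2H2AA4, was the H2A gene that fell. It stood at 6.71 and 8.10 FPKM in solvent at 16 h, 2.55 and 2.25 with 20 nM and 3.65 and 1.58 with 100 nM. The 24 h values were 5.90 and 3.90 in solvent, 4.12 and 8.11 with 20 nM and 3.67 and 2.73 with 100 nM. At 16 h the drug libraries of both doses were below solvent, and at 24 h those of 20 nM overlapped it while those of 100 nM lay below it. Changes at 16 h were -1.30 (SE 0.33, adjusted p = 0.0258) and -1.27 (adjusted p = 0.022). The 20 nM call ended without library 1, 2, 5 or 6, the 100 nM call without library 4, 5 or 6, and both without the low-value filter (adjusted p from 0.0666 to 0.129); without library 4 the 100 nM change was -0.85. HIST1H2AH ranged from 0.33 to 5.99 FPKM, with the highest value in library 8, and was not called in any drug comparison.

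In the H2B class, HIST1H2BO, a coding gene at the end of the HIST1 cluster (27893463 to 27893843, plus strand), stood at 2.30 and 0.90 FPKM in solvent at 16 h, 2.46 and 1.54 with 20 nM and 0.45 and 1.17 with 100 nM. Its values at 24 h were 1.02 and 0.39 in solvent, 6.64 and 6.41 with 20 nM and 7.68 and 6.33 with 100 nM. Groups overlapped at 16 h and were widely apart at 24 h. The 24 h changes were 2.17 (SE 0.30, adjusted p = 0.00123) and 2.25 (SE 0.30, adjusted p = 0.000746), the largest of any member at 24 h, and both were called under every alternative. Its annotated transcript of 381 bases is unique in all 100-base windows.

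HIST1H2BN, another coding H2B gene with transcripts of 432 to 4137 bases, stood at 0.80 and 0.46 FPKM in solvent at 16 h, 1.51 and 1.56 with 20 nM and 0.6 and 0.75 with 100 nM. Its 24 h values were 0.48 and 0.59 in solvent, 1.27 and 2.29 with 20 nM and 2.15 and 1.93 with 100 nM. It was clear of solvent at 20 nM at both times and at 100 nM at 24 h, the same order as HIST1H2AG. Changes were 0.64 (SE 0.18, adjusted p = 0.0385) with 20 nM at 16 h and 0.83 (adjusted p = 0.00909) and 0.99 (adjusted p = 0.00338) at 24 h. The 16 h call ended without library 1, 2, 3, 4, 5, 6, 9, 10, 11 or 12 and without the low-value filter (adjusted p from 0.0515 to 0.186), and the 24 h call with 20 nM without library 11 (adjusted p = 0.0551).

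Of the 4 tested H2B genes, 2 are transcribed pseudogenes of the HIST2 cluster that overlap on opposite strands. HIST2H2BD was listed at 0 in both solvent libraries at 16 h, at 3.48 and 3.69 FPKM with 20 nM and at 4.40 and 1.67 with 100 nM. At 24 h it stood at 1.82 and 4.61 in solvent, 7.86 and 4.55 with 20 nM and 6.46 and 6.02 with 100 nM. Only the 16 h solvent libraries lacked it. On the log2(FPKM + 1) scale the 16 h changes were 2.20 (SE 0.38, adjusted p = 0.00526) and 1.93 (SE 0.38, adjusted p = 0.00704), called under every alternative, while those at 24 h were not called (adjusted p = 0.139 and 0.109). Solvent at 24 h against 16 h was called as well, at 1.99 (adjusted p = 0.0237), and that call ended without library 5, 6 or 12 and without the low-value filter (adjusted p from 0.0723 to 0.142).

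HIST2H2BC, its overlapping partner, stood at 0.46 and 0.48 FPKM in solvent at 16 h, 1.00 and 0.95 with 20 nM and 0.66 and 0.64 with 100 nM. At 24 h it stood at 0.7 and 0.62 in solvent, 1.14 and 1.36 with 20 nM and 1.33 and 1.36 with 100 nM. Its duplicates were close and each drug library was above solvent. The changes were 0.43 (SE 0.11, adjusted p = 0.0286) with 20 nM at 16 h, and 0.44 (adjusted p = 0.0169) and 0.50 (adjusted p = 0.00803) at 24 h. The 16 h call ended without library 1, 2, 5 or 6 and in the 16 h libraries alone (adjusted p from 0.0546 to 0.133), and the 24 h call with 20 nM without library 8, 11 or 12 and in the 24 h libraries alone (adjusted p from 0.0506 to 0.0809). Unique windows make up 91.5% of HIST2H2BC and 84.7% of HIST2H2BD, and the others are shared between the 2.

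In the H3 class only HIST2H3D was called, and 48.7% of its windows are unique, the rest being shared with other HIST2 H3 genes and AC239798.4. It stood at 1.23 and 1.96 FPKM in solvent at 16 h, 0.79 and 1.85 with 20 nM, and 0.66 and 0 with 100 nM. Its 24 h values were 0.77 and 0.87 in solvent, 1.46 and 0.94 with 20 nM and 1.49 and 2.22 with 100 nM. The 100 nM libraries were below solvent at 16 h and above it at 24 h. The 16 h change was -0.996 (SE 0.30, adjusted p = 0.0393), and it ended without library 4, 5, 6, 9, 10, 11 or 12, in the 16 h libraries alone and without the low-value filter (adjusted p from 0.0504 to 0.215); without library 4, where the gene was listed at 0, it was -0.63. HIST1H3B ranged from 0 to 1.87 FPKM and HIST1H3J from 0 to 1.75, and neither was called in a drug comparison.

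Of the 3 tested H4 genes, HIST1H4J was the most abundant, with a mean of 8.15 FPKM. It stood at 12.1 and 8.41 FPKM in solvent at 16 h, 8.07 and 8.10 with 20 nM and 8.36 and 7.74 with 100 nM, then at 10.8 and 4.70 in solvent at 24 h, 5.65 and 8.0 with 20 nM and 9.32 and 6.54 with 100 nM. At 24 h all drug libraries lay within the range of the 2 solvent libraries. Its log2 changes lay between -0.30 and 0.11, with a standard error of 0.31, and none was called. HIST1H4C, at 1.69 to 7.55 FPKM, was not called either, with changes of -0.34 and -0.66 at 16 h and 0.21 and 0.26 at 24 h (SE 0.27). These levels carry a limit of their own for HIST1H4J, where 22.3% of windows are unique and the rest are shared with HIST1H4K, while all windows of HIST1H4C are unique.

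HIST2H4A was the H4 gene that rose. It stood at 3.04 and 3.74 FPKM in solvent at 16 h, 3.38 and 5.22 with 20 nM and 2.83 and 2.97 with 100 nM. At 24 h it stood at 1.2 and 1.48 in solvent, 5.23 and 11.8 with 20 nM and 5.88 and 5.69 with 100 nM. Solvent itself was lower at 24 h than at 16 h (-0.91, SE 0.29), a difference that was not called (adjusted p = 0.0928), so the 24 h comparison starts from a lower level. The changes at 24 h were 1.94 (SE 0.29, adjusted p = 0.00172) and 1.54 (SE 0.29, adjusted p = 0.00391), called under every alternative, leaving out library 8 included. Only 5.1% of its windows are unique, and HIST2H4B, its near-identical copy, was listed at 0.28 and 0 in solvent at 24 h and 0.36 to 1.35 with drug, so the level belongs to the 2 genes together.

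**Figure D4:**
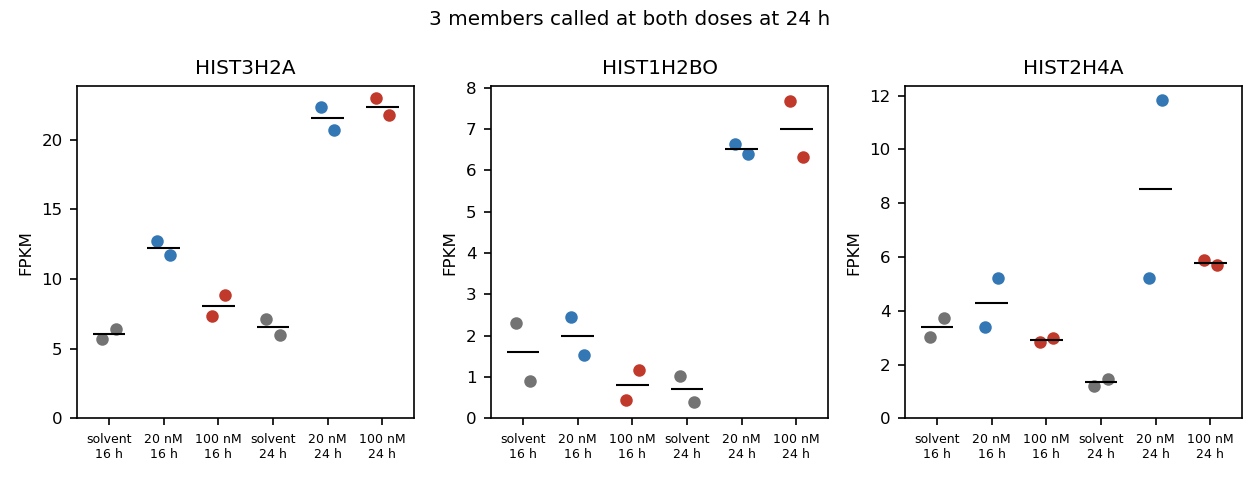
FPKM of HIST3H2A, HIST1H2BO and HIST2H4A in each library, with a line at the mean of the 2 libraries of a group (grey solvent, blue 20 nM, red 100 nM). In each gene the 4 drug libraries at 24 h lie above both solvent libraries, and in HIST3H2A the 20 nM libraries are above solvent at 16 h too.

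Several H2A and H2B members face each other across a short shared promoter region, so their neighbours were compared. By the outermost GENCODE start of each gene, histone genes formed 18 such head-to-head pairs within 1000 bases, 17 of them H2A with H2B. In 13 pairs both genes were members. HIST1H2AK and HIST1H2BN are not counted, because HIST1H2AK lies within the GENCODE span of HIST1H2BN. Their RefSeq upstream regions nonetheless overlap on opposite strands, so the counts miss this pair. HIST3H2A faces HIST3H2BB across 234 bases, and HIST3H2BB stayed between 0 and 0.28 FPKM. It was nonetheless above solvent at 24 h like its partner, at 0.18 and 0.27 with 20 nM and 0.27 and 0.28 with 100 nM over 0.11 and 0.08, and was called with 100 nM when every gene above 0 was tested (adjusted p = 0.0269). HIST1H2AD and HIST1H2BF, across 277 bases, and HIST1H2AM and HIST1H2BO, across 314 bases, were likewise both above solvent in every 24 h drug library. So were HIST1H3J and HIST1H2BO, across 357 bases, but HIST1H3J overlaps HIST1H2AM on the same strand and 63.5% of its windows are unique. For scale, 13 of the 18 tested members lay above solvent with 20 nM at 24 h, and 13 with 100 nM. HIST1H2AD and HIST1H3J met the testing minimum only with treated libraries. In another pair, HIST2H2AA3 was listed at 0 in every 24 h library, while HIST2H2BD stood at 4.55 to 7.86 FPKM with drug. However, 0.0% of the 100-base windows of HIST2H2AA3 are unique, all being shared with HIST2H2AA4 or HIST2H2AC. HIST2H2AA4 was listed at 9.35 and 10.82 in solvent at 24 h and at 110.59 to 119.61 with drug. The division of reads between these copies is uncertain, so the 0 does not show a silent partner. At 24 h HIST1H2AJ overlapped solvent at both doses, and its partner HIST1H2BM was above it with 20 nM alone. In the other member pairs both genes were at 0 throughout, apart from HIST1H2BG and HIST1H2AE, which stayed at or below 0.13 FPKM. In 4 pairs a member faces one of the genes set aside for their rise. HIST1H2AG beside HIST1H2BJ and HIST2H2BC beside HIST2H2AA4 rose with 20 nM at 16 h and with both doses at 24 h, HIST1H2AH beside HIST1H2BK was not called, and HIST2H2AC beside HIST2H2BE fell at 16 h.

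The 120 bases before the annotated starts of HIST3H2A, HIST1H2AM and their partners are printed to show the motif matches nearest each start. They are from RefSeq on GRCh38.p14. Capitals mark the CCAAT box on either strand, the TATA box as TATAAA and the octamer as ATTTGCAT, and each sequence runs 5′ to 3′ on the strand of its gene.
HIST3H2A, chr1:228457874-228457993, minus strand: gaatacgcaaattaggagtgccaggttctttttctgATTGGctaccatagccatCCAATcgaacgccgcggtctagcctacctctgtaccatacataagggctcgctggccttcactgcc
HIST3H2BB, chr1:228457983-228458102, plus strand: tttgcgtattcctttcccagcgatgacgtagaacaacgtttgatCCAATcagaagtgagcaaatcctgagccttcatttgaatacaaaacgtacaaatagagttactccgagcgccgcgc
HIST1H2AM, chr6:27893186-27893305, minus strand: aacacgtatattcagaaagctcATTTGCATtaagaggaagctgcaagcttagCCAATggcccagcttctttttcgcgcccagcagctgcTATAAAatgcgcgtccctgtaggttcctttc
HIST1H2BO, chr6:27893305-27893424, plus strand: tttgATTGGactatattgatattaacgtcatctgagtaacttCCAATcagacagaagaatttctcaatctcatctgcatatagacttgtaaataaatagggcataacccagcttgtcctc
Within the printed 120 bases a CCAAT match lies in all 4, and matches to the other 2 motifs in HIST1H2AM alone. The 250 bases upstream of HIST1H2BO also cover the octamer and the TATAAA printed for HIST1H2AM, so both genes hold them over that length. Promoters were matched for 53 members and searched over the 250 bases upstream, on both strands, for these letters, and the 3 motifs do not overlap one another. CCAAT was found in 44 of the 53 (32.01% of 35116 RefSeq promoters), including every H1, H2A, H2B and H3 promoter but only 3 of 12 H4 promoters. TATAAA was found in 34 (10.72% of all promoters) and ATTTGCAT, the octamer, in 21 (1.63%). The octamer matches were uneven over the classes, with 10 of 13 H2A, 10 of 13 H2B, 1 of 10 H3, 0 of 5 H1 and 0 of 12 H4 promoters. The H3 match is that of HIST1H3D, whose listed start and promoter are the same as those of HIST1H2AD, so this sequence is counted under both classes. Facing H2A and H2B genes can share a match too, since both strands were searched. HIST1H2AA and HIST1H2BA hold the same octamer, as do HIST1H2AD and HIST1H2BF. So do HIST1H2AE and HIST1H2BG, HIST1H2AJ and HIST1H2BM, and HIST1H2AM and HIST1H2BO over the 250 bases. The H2A and H2B counts are therefore in good part counts of the same sites and not of separate matches. These are matches of letters and not measured binding.

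Members under the testing minimum summed to 5.24 ± 0.262 FPKM in solvent at 16 h, 5.98 ± 0.0990 with 20 nM and 3.59 ± 1.23 with 100 nM, and at 24 h to 3.26 ± 0.537, 11.1 ± 6.38 and 8.48 ± 0.608. The 20 nM value at 24 h came from library 8 at 15.6, against 6.55 in library 7. HIST1H4A, an H4 gene, gave the clearest case, at 2.46 FPKM in library 8 and at 0 in the other 11. When every gene above 0 was tested, 47 members entered among 28271 genes, and 4, 1, 11 and 14 rose in the 4 drug comparisons (2.35%, 3.31%, 5.78% and 6.20% of all genes rose). At 24 h the H2B gene HIST1H2BF, the H3 genes HIST2H3A and HIST2H3C, which are listed with identical values, and HIST4H4 rose at both doses, and HIST3H2BB, HIST1H4I, HIST1H1T and the pseudogene HIST1H3PS1 at 100 nM. HIST1H3PS1 was above 0 only in the 2 libraries of 100 nM at 24 h. HIST1H1T was above 0 only in 4 treated libraries, at no more than 0.15 FPKM. Both entered this test only through treated libraries, so its counts are tilted towards genes that are higher with drug. HIST1H2BF stood at 0.12 and 0.03 FPKM in solvent at 24 h, 0.41 and 0.86 with 20 nM and 0.59 and 0.59 with 100 nM. HIST2H3A stood at 0.16 and 0.16 in solvent, 0.45 and 0.61 with 20 nM and 0.45 and 0.37 with 100 nM, so these rises took place below 1 FPKM.

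The doses were also compared with each other. At 16 h, 0 of the 18 members differed between 100 nM and 20 nM by limma (0.320% of all tested genes differed, 0.0446% higher and 0.275% lower), although 8 had an unadjusted p under 0.05 and the median difference was -0.32. The closest to the threshold was HIST3H2A, lower with 100 nM by 0.55 (SE 0.10, adjusted p = 0.0769), followed by HIST1H2AG at -0.60 (adjusted p = 0.108). At 24 h, 0 of 18 differed (4.88% of all, 1.82% higher and 3.06% lower), with 3 at an unadjusted p under 0.05 and a median of 0.05, but 4 differed without library 7, when calls over all genes went from 657 to 1511. Between the solvent groups, 1 of 18 differed (5.62% of all, 3.14% higher at 24 h and 2.47% lower), the pseudogene HIST2H2BD, and 3 without library 7 or 8.

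The change of each drug effect from 16 h to 24 h was tested as an interaction. It was positive and called for 4 members with 20 nM (7.06% of all tested genes) and 7 with 100 nM (5.87%), and negative and called for 0 (4.46% and 4.29%, for 11.5% and 10.2% in either direction). HIST3H2A, HIST1H2BO, HIST1H2AM and HIST2H4A were called at both doses, and HIST1H2AG, HIST1H2BN and HIST2H3D at 100 nM. HIST1H2AG and HIST1H2BN met the testing minimum only with treated libraries, so the count at 100 nM is tilted by that minimum. The other members named here met it on solvent libraries alone. Called under every alternative were the 100 nM interactions of HIST1H2BO (2.75, SE 0.43, adjusted p = 0.00626), HIST3H2A (1.27, SE 0.15, adjusted p = 0.00161) and HIST1H2AG (1.00, SE 0.18, adjusted p = 0.0116).

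Other histone lists give the scale of these changes. The 9 clustered histone genes set aside for their strong response, and so not independent evidence, summed to 43.9 ± 0.0640 FPKM in solvent at 16 h, close to the 47.5 of the 81 members, but to 3.50 and 2.07 times solvent at 16 h and 8.38 and 9.65 times at 24 h. The members reached 2.48 and 2.13 times at most. The 12 genes listed as replication-independent histone variants summed to between 0.981 and 1.15 times solvent in the 4 comparisons. The 1.15 became 1.01 with libraries rescaled to a common sum. Of the 10 variants tested, 2, 2, 2 and 1 rose and 4, 4, 4 and 3 fell. Over all tested genes 6.78%, 9.16%, 14.7% and 15.4% rose, while 1476 of 13458, then 14.7%, 14.1% and 18.4% fell.

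A further 2 lists come from the biology of histone mRNA and are given by their counts. Of 39 DNA replication genes, which are expressed with the histones in S phase, 0 rose and 23 fell with 20 nM at 16 h, 0 rose and 25 fell with 100 nM at 16 h, 15 rose and 1 fell with 20 nM at 24 h, and 8 rose and 10 fell with 100 nM at 24 h. Of 26 genes for histone mRNA processing and histone gene transcription, such as SLBP and NPAT, 3, 5, 8 and 10 rose and 3, 7, 1 and 3 fell in the same order. For both lists the shares over all tested genes were 6.78%, 9.16%, 14.7% and 15.4% higher. Lower were 1476 of 13458, then 14.7%, 14.1% and 18.4%. The part of these 2 lists in the histone values was not tested.

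Outside the set, the 5 genes whose 6 group means on the log2(FPKM + 1) scale were most like those of HIST3H2A, among 9459 genes of mean at least 5 FPKM, were CTSC, CIDECP, SYNCRIP, DGUOK-AS1 and PLAUR, with Pearson r from 0.995 to 1.00. This is a description over 6 group means that share the same libraries. DGUOK-AS1 went from 17.9 FPKM in solvent at 16 h to 28.6 and 22.4 with 20 nM and 100 nM, and from 20.0 to 45.7 and 42.8 at 24 h, the same order of groups as HIST3H2A apart from the 2 doses at 24 h.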

How the data were processed

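The authors' deposited table gives FPKM per gene, 1 column per library, made with RSEM 1.2.28 on GRCh38 per the submitters' processing notes. No source used here names the aligner, annotation release or strand setting; per the labels' protocols the libraries were poly(A)-selected and prepared with a directional kit. Columns name their group, so each group has 2 libraries. Identifiers were matched to GENCODE 29 symbols (57836 of 58174). Genes with at least 1 FPKM in at least 2 libraries were tested as log2(FPKM + 1) with limma 3.58.1 in R 4.3.3, in 1 fit of 6 group means with a mean-dependent prior, two-sided, with Benjamini-Hochberg adjustment over 13458 genes. The step was tested on simulated data. Class and cluster sums include members under the minimum and have no test. Values in every library are given for members called in at least 1 drug comparison or with the largest mean of their class; likeness genes are the 5 with the highest Pearson r to the most abundant member. The members, lists and rules were chosen with earlier results of these data known. The split of class sums without HIST3H2A or HIST2H2BD was chosen after seeing the values. Stem-loops, polyadenylation signals and shared windows of 100 bases were read from GENCODE 29 transcripts, promoters from RefSeq (GRCh38.p14), matched by symbol. FPKM keeps no read depth here, so no counting interval is given.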

Additional observations from a re-analysis of the deposited data

Results flagged for a closer look

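The drug effect differed between 16 h and 24 h for 7 histone members by the interaction test in limma, each time more positive at 24 h. HIST3H2A changed by 0.67 (SE 0.15, adjusted p = 0.0208) more with 20 nM and by 1.27 (adjusted p = 0.00161) more with 100 nM. For 20 nM the call ended without library 2, 6 or 12 and without the low-value filter (adjusted p from 0.0585 to 0.0742). HIST1H2BO differed by 1.92 (adjusted p = 0.0228) and 2.75 (adjusted p = 0.00626), the first ending without library 2, 5 or 12 and without the filter (adjusted p from 0.0657 to 0.0789). HIST1H2AG, which met the testing minimum only with treated libraries, differed by 1.00 with 100 nM (adjusted p = 0.0116).

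The other differences were less firm. HIST1H2AM differed by 2.17 (adjusted p = 0.0333) and 2.03 (adjusted p = 0.0449). Its 20 nM call ended without library 1, 2, 5, 6, 9, 10, 11 or 12, its 100 nM call without library 1, 2, 3, 4, 5, 6, 9, 10, 11 or 12 and with a constant prior, and both without the filter (adjusted p from 0.0522 to 0.13). HIST2H4A differed by 1.68 (adjusted p = 0.0317) and 1.71 (adjusted p = 0.0324). Its 20 nM call ended without library 1, 5, 6, 9, 10, 11 or 12, its 100 nM call without library 3, 4, 5, 6, 9, 10, 11 or 12, and both without the filter (adjusted p from 0.0513 to 0.105). With 100 nM, HIST1H2BN differed by 0.94 (adjusted p = 0.0492), which ended without library 1, 2, 3, 4, 5, 6, 9, 10, 11 or 12, with a pseudocount of 0.1 and without the filter (adjusted p from 0.0519 to 0.142). HIST2H3D differed by 1.63 (adjusted p = 0.0415), which ended without library 4, 5, 6, 9, 10, 11 or 12, with a pseudocount of 0.1 and without the filter (adjusted p from 0.0648 to 0.125). In HIST1H2AM and HIST2H3D with 100 nM the libraries were below solvent at 16 h and above it at 24 h.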

How the results depend on the processing

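Of 39 calls of a named gene in a comparison, 17 held under every alternative in which the gene could be tested and 0 reversed. Without the low-value filter 18 ended; more genes were then adjusted over and the prior was refitted, and the cause was not tested. Neither scaling ended any. Counts of called members changed with the filter and with single libraries left out. At a minimum of 5 FPKM, with fewer genes tested, they were 3 with 20 nM at 16 h and 3 with 20 nM at 24 h. They were also 3 with 100 nM at 24 h and 3 for the change of the 100 nM effect. Over all genes the calls were then 2275, 3550, 4055 and 1374 in that order, against 2388, 3880, 4550 and 1368 in the main fit. With no filter the member counts were 1 with 100 nM at 16 h, 14 with 100 nM at 24 h and 1 between doses at 24 h. They were 0 between solvent groups, 0 for the change of the 20 nM effect and 4 for that of 100 nM. Over all 28271 genes then tested, the calls were 2466, 3818, 334, 326, 1008 and 935 in that order. The 24 h libraries alone gave 6 member calls with 20 nM, and 2728 over all genes. Leaving out each library in turn gave 2 to 6 calls with 20 nM and 1 to 6 with 100 nM at 16 h, 5 to 10 and 7 to 8 at 24 h, 0 to 0 between doses at 16 h, 0 to 4 at 24 h, 0 to 3 between solvent groups, and 0 to 7 and 3 to 7 for the change of the 20 nM and 100 nM effects; a library left alone in its group was assumed to vary like the others. The summed FPKM was then 1.05 to 1.13 and 0.75 to 0.84 times solvent at 16 h, and 2.10 to 2.85 and 2.02 to 2.26 times at 24 h. Without HIST3H2A, chosen after seeing the data, it was 0.948 and 0.716 times at 16 h and 1.89 times with 100 nM at 24 h. Rescaled to a common sum, which moved the median of all genes by -0.16 with 20 nM at 24 h, it was 1.99 times with 100 nM at 24 h. No paired analysis was possible because the columns carry library numbers and not the sample numbers of the labels. The read depth behind each FPKM is unknown, and 2 libraries a group limit the precision.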
